A study of Mus musculus with 6 samples.

Results

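The neural crest specifiers examined here are 10 transcription factor genes: Pax3, Tfap2a, Tfap2b, Foxd3, Sox9, Sox10, Ets1, Snai1, Snai2 and Twist1. They were chosen by name and not by their values, out of 27670 gene names on the array, though earlier results of these data were known. They are represented by 20 of its 41174 distinct probes, which take up 38 of its 43379 spots outside the controls. The array's annotation names most of them by the current symbol, but Tfap2a and Tfap2b appear there under the older symbols Tcfap2a and Tcfap2b.

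The neural crest forms at the border between the neural plate and the surface ectoderm, leaves the neural folds by an epithelial to mesenchymal transition, and gives rise to facial skeleton, peripheral neurons and glia, and pigment cells. Border factors such as Pax3 and the Tfap2 proteins respond to Wnt, BMP and FGF signals and switch on Foxd3, Sox9, Snai1 and Snai2 in the crest, and Sox10 marks the cells as they emerge and migrate. In the mouse embryo at this stage cranial crest is leaving the neural folds while the trunk neural tube is still closing. None of these genes is restricted to the crest: Pax3 and Sox9 are also active in the neural tube and somites, Tfap2a in surface ectoderm, Twist1 and Snai1 in mesoderm, and Ets1 in endothelium and blood precursors.

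RNA of whole mouse embryos at embryonic day 8.5 was measured on 1-colour Agilent arrays, 1 array per sample. The first group comprised 3 Brg1d/d samples, labelled as conditional knockouts of Brg1 (Brg1 CKO), and the other comprised 3 Brg1fl/fl samples, labelled as wild-type control and carrying the floxed, undeleted gene. The dams of both groups had received tamoxifen, so the controls share the drug and the floxed alleles. The labels call the samples biological replicates. Not given in the sources used here are the promoter that drives Cre, the Cre status of the controls and how many embryos made up a sample. Brg1, gene symbol Smarca4, is an ATPase of SWI/SNF complexes, which remodel chromatin.

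Each level below is a probe's log2 signal after the 75th percentile of its array was subtracted, so that 0 is the 75th percentile. A level compares arrays for 1 probe, since different probes bind with different strength. Differences are Brg1d/d minus Brg1fl/fl on the log2 scale. The adjusted p values come from limma with Benjamini-Hochberg adjustment over all 27840 probes tested, with a threshold of 0.05. For a gene with several probes the one with the highest mean level is called the lead probe.

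The arrays differed in ways that bear on these values. Brg1d/d replicate 2 and the 3 controls were scanned on 1 day, and Brg1d/d replicates 1 and 3 each on a day of its own. The brightest spike-in control read 6905 and 12934 units on Brg1d/d replicates 3 and 1, against 208550 to 241121 units on the other 4 arrays. The controls shared 1 slide and each Brg1d/d array had its own, so slide and genotype cannot be told apart. The same-day difference, Brg1d/d replicate 2 minus the mean of the 3 controls, is therefore given beside the main one. It rests on 1 Brg1d/d array and has no replicate check. The 3 Smarca4 probes were lower on every Brg1d/d array than on any control, by 2.08 to 2.69 on the log2 scale (limma adjusted p 0.00541 to 0.0129). Which exons were deleted is likewise not given, so the probes may lie outside them. Between 68.5% and 73.5% of spots were well above background per array.

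The sequences of 5 probes are shown because their values disagree with, or add to, those of the lead probes. Coordinates come from the array's own annotation (build mm7). The first pair are Ets1 probes that overlap by 50 bases in the stretch encoding the ETS DNA-binding domain and differ there at 4 bases, in capitals. Counted from the 5′ end of the first probe, the differences are A10G, G11C, G37C and C38G, the first probe's base standing first.
Ets1 probe A_52_P232830, chr9:32655863-32655922, plus strand: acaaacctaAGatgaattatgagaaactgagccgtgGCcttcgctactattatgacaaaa
Ets1 probe A_51_P329043, chr9:32655853-32655912, plus strand: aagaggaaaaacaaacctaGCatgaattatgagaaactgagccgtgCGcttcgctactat
Sox9 probe A_51_P451606, annotated over 853 bases at chr11:112892041-112892893, plus strand: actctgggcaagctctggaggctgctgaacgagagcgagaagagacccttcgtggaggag
Tfap2a probe A_51_P443062, annotated over 3221 bases at chr13:40164742-40167962, minus strand: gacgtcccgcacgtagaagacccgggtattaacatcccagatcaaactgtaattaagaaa
Sox10 probe A_52_P192625, chr15:79239405-79239464, minus strand: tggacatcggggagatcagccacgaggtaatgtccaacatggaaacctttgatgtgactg

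None of the 10 genes passed the test. Of the 20 probes, 17 passed the filter on dim probes and were tested, 16 of them well above background on all 6 arrays, and limma called 0 of the 17, with the smallest adjusted p at 0.0967. Over all probes limma called 9.38%. At an unadjusted p under 0.05 there were 4 probes, where all probes gave 31.7%. By lead probe 0 of 10 genes were called, against 10.6% of all genes, and 3 genes, Pax3, Sox10 and Foxd3, had an unadjusted p under 0.05, against 32.6% of all genes. All 3 had lower means in Brg1d/d, where 14.8% of all genes had such a p in that direction. The lead-probe difference was below 0 in 8 of 10 genes, against 45.0% of all genes, and its median was -0.442, against 0.07 over all genes. With the mean of each gene's probes in place of the lead probe it was -0.185. The same-day medians of the lead probes were -0.365 and 0.004. In 2 of 10 genes the genotypes were fully separated, with no overlap, against 42.0% of all genes. These were Pax3, lower in Brg1d/d (19.1% of all genes), and Snai2, higher (22.8% of all genes). Because whole embryos were measured, a change in crest cell number, in RNA per cell or in other tissues that express these genes could not be told apart.

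**Figure D1:**
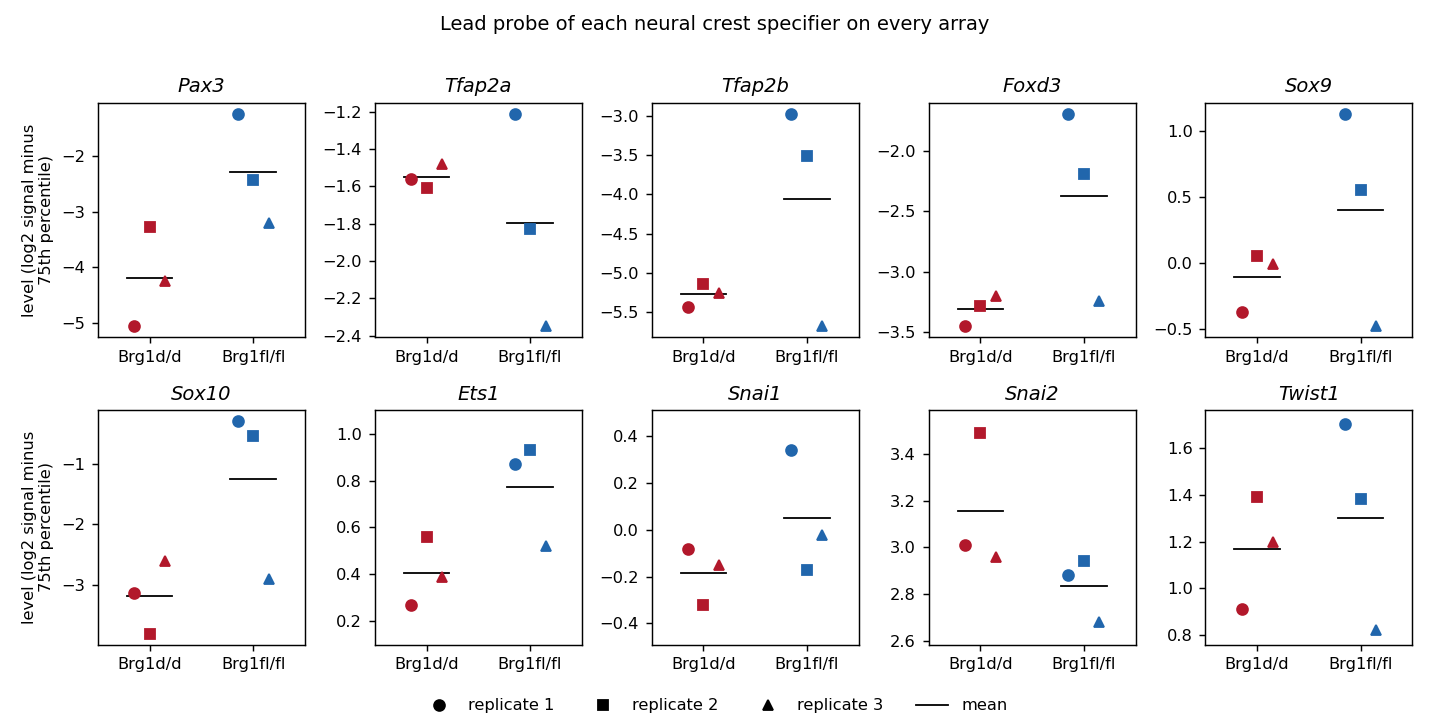
Level of the lead probe of each gene on every array (y axis, log2 units above or below the array's 75th percentile; a scale of its own for each gene), with Brg1d/d left of Brg1fl/fl, marker shapes for replicates 1 to 3 and a line at each mean. Control 3 is the lowest control in 9 of the 10 genes and control 1 the highest in 8, and the Brg1d/d arrays span less than the controls in all but Snai2.

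Among the border factors, Pax3 had the smallest p of the 10 genes. Pax3 is a paired-box activator needed for crest and for somite muscle precursors. Its lead probe, at chr1:78328329-78328388 on the minus strand, read -5.06, -3.28 and -4.25 on Brg1d/d arrays 1, 2 and 3, against -1.23, -2.42 and -3.20 on controls 1, 2 and 3. Every Brg1d/d array lay below every control, but Brg1d/d replicate 2 came close to control 3. The mean was -4.20 ± 0.89 in Brg1d/d and -2.28 ± 0.99 in Brg1fl/fl (SD, n = 3 each). The difference of -1.92 ± 0.62 (SE; 95% interval -3.39 to -0.44), 3.77-fold lower, missed the threshold (limma adjusted p 0.0967), and the same-day difference was -1.0. This probe is printed 10 times on the array. The processed signal averaged 48.8, 99.8 and 83.3 units on the Brg1d/d arrays and 428, 189 and 104 units on the controls. The coefficient of variation between its spots was 18.5% on Brg1d/d replicate 1 and 2.27% to 5.36% on the other 5 arrays. A second Pax3 probe was well above background on 2 arrays of each genotype and was not tested.

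The Tfap2 genes encode AP-2 factors of the border, the surface ectoderm and the crest. Tfap2a did not differ detectably at its lead probe, at -1.56, -1.61 and -1.48 in Brg1d/d against -1.21, -1.83 and -2.35 in the controls. The Brg1d/d values lay inside the range of the controls, and the difference was 0.25 ± 0.29 (SE; 95% interval -0.46 to 0.95; limma adjusted p 0.584). It was 0.19 on the same day and -0.03 without control 3. The Tfap2b lead probe read -5.43, -5.14 and -5.25 in Brg1d/d against -2.97, -3.51 and -5.68 in the controls. Controls 1 and 2 stood far above all Brg1d/d arrays and control 3 stood below them all. The difference was -1.22 ± 0.67 (SE; 95% interval -2.82 to 0.37; limma adjusted p 0.246), with -1.09 on the same day. Of the other Tfap2b probes, A_52_P352771 differed by 0.44 ± 0.43 (SE, limma adjusted p 0.497), opposite in sign to the lead probe, and A_51_P248344 was not well above background on any array.

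Foxd3 is a forkhead repressor of premigratory crest and also of pluripotent cells. Its only probe, at chr4:99050943-99051002 on the plus strand, read -3.45, -3.28 and -3.20 in Brg1d/d against -1.69, -2.19 and -3.24 in the controls. Controls 1 and 2 were above all Brg1d/d arrays, and control 3 lay among them. The difference was -0.94 ± 0.39 (SE; 95% interval -1.86 to -0.01), 1.91-fold lower, with a limma adjusted p of 0.156. On the same day it was -0.91.

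Sox9 and Sox10 belong to the SoxE group. Sox9 acts early in crest and later in cartilage, and its lead probe, at chr11:112894739-112894798 on the plus strand, read -0.37, 0.05 and -0.01 in Brg1d/d against 1.13, 0.55 and -0.48 in the controls. Again controls 1 and 2 were above all Brg1d/d arrays, and control 3 was below them. The difference was -0.51 ± 0.40 (SE; 95% interval -1.48 to 0.45; limma adjusted p 0.403), with -0.36 on the same day. A second Sox9 probe, A_52_P214630, is printed 10 times and gave the same order of arrays within the controls, with 1173, 910 and 1175 units in Brg1d/d against 2012, 1573 and 755 units in the controls. Its spots varied by 4.01% to 6.66%, and its difference was -0.77 ± 0.36 (SE; 95% interval -1.62 to 0.09; limma adjusted p 0.191), with -0.53 on the same day. The remaining Sox9 probe, whose sequence is given above and which reads in the HMG box, the DNA-binding domain, had the opposite sign at 1.29 ± 0.65 (SE, limma adjusted p 0.217). That probe differed by 0.06 on the same day.

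Sox10, required for crest-derived glia and pigment cells, had a lead-probe difference close in size to that of Pax3. The probe, at chr15:79238027-79238086 on the minus strand, read -3.13, -3.81 and -2.61 in Brg1d/d against -0.29, -0.53 and -2.91 in the controls. Controls 1 and 2 stood far above every Brg1d/d array, whereas control 3 lay among them. The mean was -3.18 ± 0.60 in Brg1d/d and -1.24 ± 1.45 in Brg1fl/fl (SD, n = 3 each), and the difference was -1.94 ± 0.72 (SE; 95% interval -3.66 to -0.21), 3.83-fold lower (limma adjusted p 0.128). On the same day it was -2.56. The second Sox10 probe, shown above, was well above background on controls 1 and 2 and on no other array, and was not tested.

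Ets1, an ETS factor of cranial crest and of endothelium, was measured by 4 probes. The lead probe, at chr9:32658897-32658956 on the plus strand, read 0.27, 0.56 and 0.39 in Brg1d/d against 0.87, 0.93 and 0.52 in the controls. The groups overlapped, as control 3 fell below Brg1d/d replicate 2, and the difference was -0.37 ± 0.18 (SE; 95% interval -0.80 to 0.06; limma adjusted p 0.204). On the same day it was -0.22. The other 3 probes differed by -0.01, 0.18 and 0.92. Of the overlapping pair shown above, A_52_P232830 read -1.32, -1.15 and -0.94 in Brg1d/d against -1.09, -1.26 and -1.59 in the controls. A_51_P329043 read -3.68, -4.51 and -3.06 in Brg1d/d against -4.36, -4.62 and -5.03 in the controls. The mean of Brg1d/d replicates 1 and 3 exceeded replicate 2 by 1.14 at A_51_P329043 and by 0.02 at A_52_P232830. Their differences between genotypes were 0.18 ± 0.20 and 0.92 ± 0.39 (SE; limma adjusted p 0.558 and 0.160), and 0.16 for each on the same day.

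The factors of the epithelial to mesenchymal transition showed small lead-probe differences. Snai1, a zinc-finger repressor of E-cadherin, read -0.08, -0.32 and -0.15 in Brg1d/d against 0.34, -0.17 and -0.02 in the controls, and the groups overlapped. The difference was -0.24 ± 0.19 (SE; 95% interval -0.69 to 0.21; limma adjusted p 0.407), with -0.37 on the same day. Snai2, its relative and a crest marker in many vertebrates, read 3.01, 3.49 and 2.96 in Brg1d/d against 2.88, 2.94 and 2.68 in the controls. All Brg1d/d arrays were above all controls, Brg1d/d replicate 3 by little. The difference was 0.32 ± 0.20 (SE; 95% interval -0.15 to 0.80; limma adjusted p 0.297), with 0.66 on the same day. Twist1, a basic helix-loop-helix factor of cranial mesenchyme, read 0.91, 1.39 and 1.20 in Brg1d/d against 1.70, 1.38 and 0.82 in the controls. The Brg1d/d values fell inside the range of the controls, and the difference was -0.13 ± 0.27 (SE; 95% interval -0.77 to 0.50; limma adjusted p 0.752), with 0.09 on the same day.

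**Figure D2:**
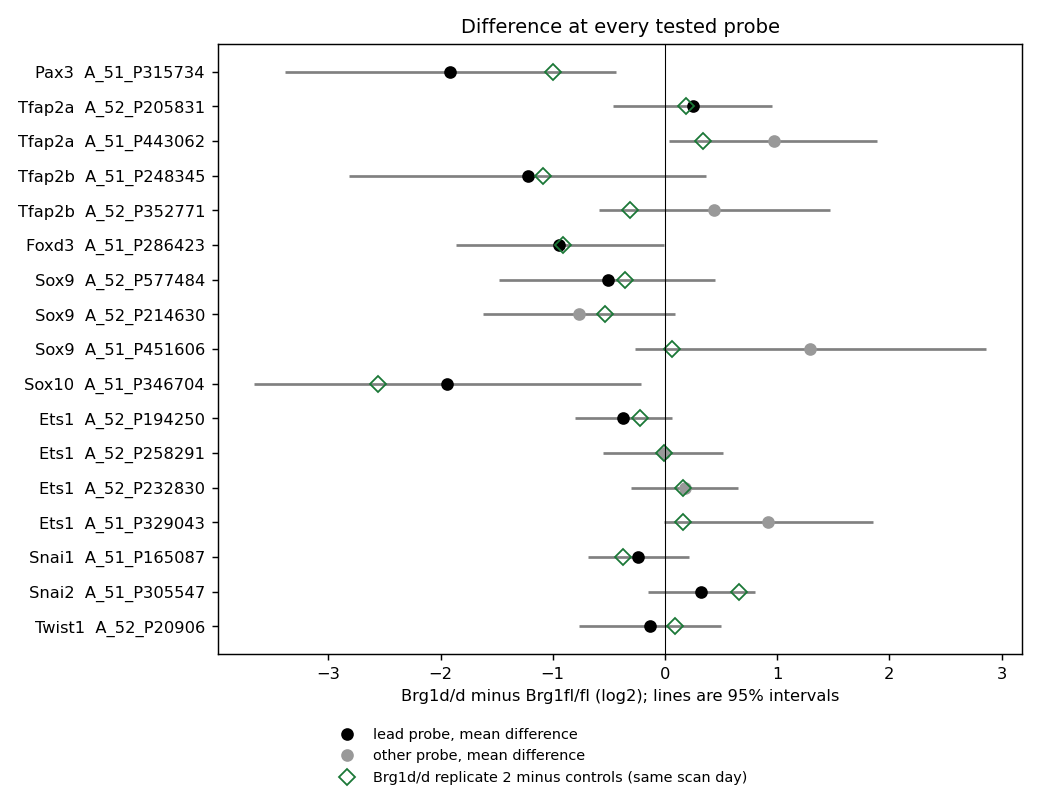
Difference between Brg1d/d and Brg1fl/fl at each of the 17 tested probes (x axis, log2; filled points with 95% intervals as lines, lead probes black and other probes grey), with the same-day difference as open diamonds. Of the 17 differences 10 lie below 0 and 7 above, and the dim probes of Sox9 (A_51_P451606), Tfap2a, Tfap2b and Ets1 (A_51_P329043) lie to the right of their lead probes, with diamonds nearer to 0.

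Some probes gave higher differences than the lead probe of their gene, and 4 of these were dim. The HMG-box probe of Sox9, the Tfap2a probe shown above, Tfap2b A_52_P352771 and Ets1 A_51_P329043 had mean levels of -5.07, -5.43, -5.24 and -4.21. The Tfap2a probe differed by 0.97 ± 0.39 (SE, limma adjusted p 0.146) and was well above background on all Brg1d/d arrays but on 2 of 3 controls, so that it entered the test through Brg1d/d, where it is high. Ets1 A_52_P232830, with a mean level of -1.23, also differed in sign from its lead probe and is not among the dim probes. Each was higher on Brg1d/d replicates 1 and 3 than on replicate 2, by 1.86, 0.95, 1.14 and 1.14. On the same day these 4 probes differed by 0.06, 0.34, -0.31 and 0.16. Dim probes of the whole array moved in the same direction: among 4047 tested probes with a mean level under -5, Brg1d/d replicates 1 and 3 exceeded replicate 2 by a median of 0.46, and the median difference between genotypes was 0.40, against 0.06 on the same day. Among the 2842 probes between -5 and -4 the corresponding medians were 0.26, 0.21 and 0.03. From -3 upwards the medians between genotypes were 0.01 to 0.05. The part of scan day in these 4 values was not tested. The lead probe of Sox10, with a mean level of -2.21, was likewise higher on Brg1d/d replicates 1 and 3 than on replicate 2, by 0.94. The lead probe of Pax3 went the other way, at -1.37. The remaining lead probes ran from -0.51 (Snai2) to 0.20 (Snai1).

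**Figure D3:**
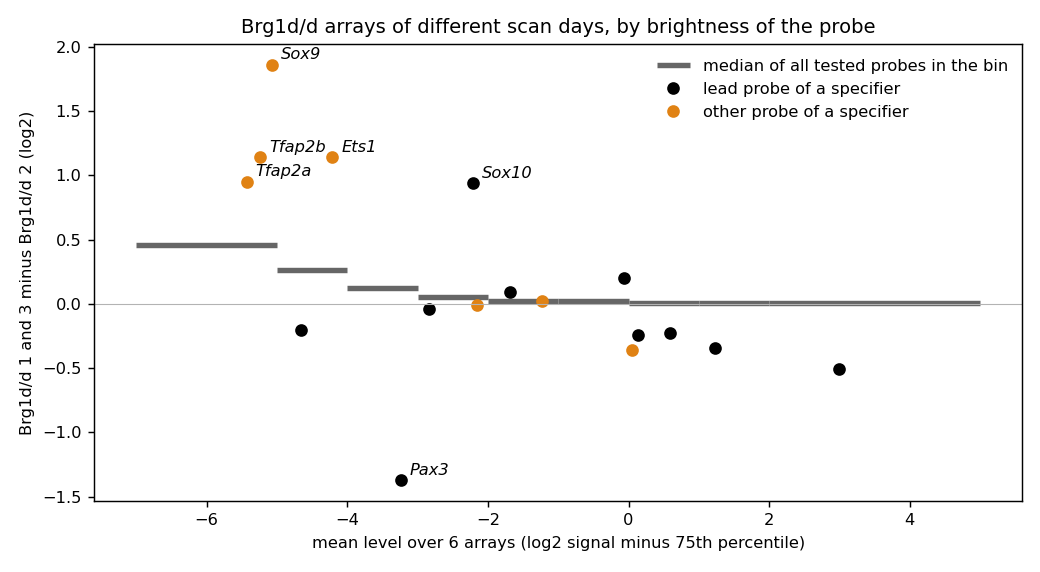
Mean of Brg1d/d replicates 1 and 3 minus replicate 2 (y axis, log2) against the mean level over the 6 arrays (x axis, log2 signal minus the 75th percentile) for the 17 tested probes, lead probes in black and other probes in orange; grey bars give the median of all tested probes per bin of level. The bars fall to about 0 at brighter probes, at 0.46 below -5, 0.26 between -5 and -4 and 0.01 above 0, and the named orange points of Sox9, Tfap2a, Tfap2b and Ets1 lie above them.

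Most of these genes spread more in the controls than in Brg1d/d. By lead probe the range of the 3 controls had a median of 1.352 over the 10 genes, against 0.445 over all 15023 genes measured. The range of the 3 Brg1d/d arrays had a median of 0.353, against 0.376 over all genes. The control range was the larger in 9 of 10 genes, the exception being Snai2, and in 55.189% of all genes. Tfap2b and Sox10 spread most among the controls, over 2.71 and 2.61, and their control ranges were wider than those of 97.8% and 97.6% of genes. Pax3 followed with 1.97, Sox9 with 1.60 and Foxd3 with 1.56, each wider than in 92.8% of genes or more. Snai2, Ets1 and Snai1, with ranges of 0.27, 0.41 and 0.52, were within the middle of the distribution. Pax3 and Sox10 also spread widely in Brg1d/d, over 1.78 and 1.2, against the median of 0.376 there over all genes.

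**Figure D4:**
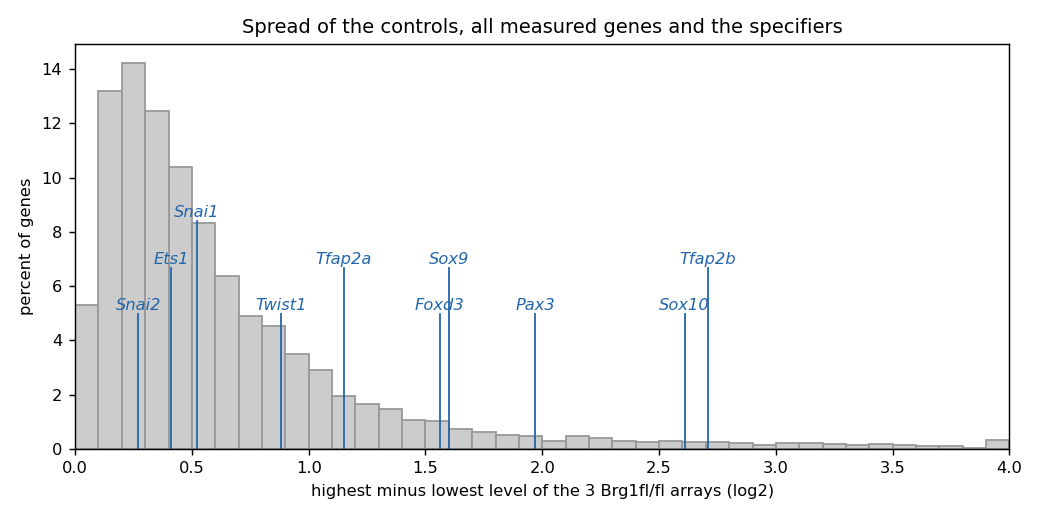
Histogram of the range of the 3 Brg1fl/fl arrays over all 15023 measured genes (x axis, highest minus lowest level, log2, with ranges over 4 in the last bar; y axis, percent of genes), with the 10 specifiers as vertical lines whose height carries no value. Sox9, Foxd3, Pax3, Sox10 and Tfap2b lie in the tail at 1.56 to 2.71, and Snai2, Ets1 and Snai1 near the middle.

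Control 3 was the low one. It read below the average of the other two controls in 10 of 10 genes, with a median of -1.07, against 49.5% of all genes and a median of 0.00. It was the lowest control in 9 genes, all but Snai1, against 33.2% of all genes. Control 1 was the highest in 8, all but Snai2 and Ets1, against 47.2%. Both held in 7 genes, against 27.2%. Genes on the same array are not independent, and these shares are descriptions of 3 arrays.

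Leaving control 3 out changed which genes passed. Without it limma called 3 of the 10 genes, all lower in Brg1d/d, where 6.14% of all genes and 5.15% of all probes were called. They were Sox10 at -2.77 ± 0.37 (SE, adjusted p 0.0213), Tfap2b at -2.04 ± 0.24 (SE, adjusted p 0.0161) and Foxd3 at -1.37 ± 0.23 (SE, adjusted p 0.0353). The median over the 10 genes was then -0.725. Over all the alternatives tried, the adjusted p ran between 0.0213 and 0.550 for Sox10, 0.0161 and 0.807 for Tfap2b and 0.0353 and 0.710 for Foxd3. Without control 1 the same 3 differences were -1.46, -0.68 and -0.59, and 0 genes were called. Pax3 did not pass in any alternative (adjusted p 0.0533 to 0.739). Without Brg1d/d replicate 2 limma called 1 of 18 tested probes, Ets1 A_51_P329043, at 1.30 ± 0.30 (SE, adjusted p 0.0403), and 0 of the 10 lead probes, where 19.0% of all probes and 18.7% of all genes were called. That fit keeps no Brg1d/d array from the controls' scan day, so scan day and genotype cannot be told apart in it. The same-day difference of this Ets1 probe, from Brg1d/d replicate 2, was 0.16. Control 3 had 68.5% of spots well above background, against 69.2% and 69.3% on controls 2 and 1. The calls without it are an alternative and not the main result.

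**Figure D5:**
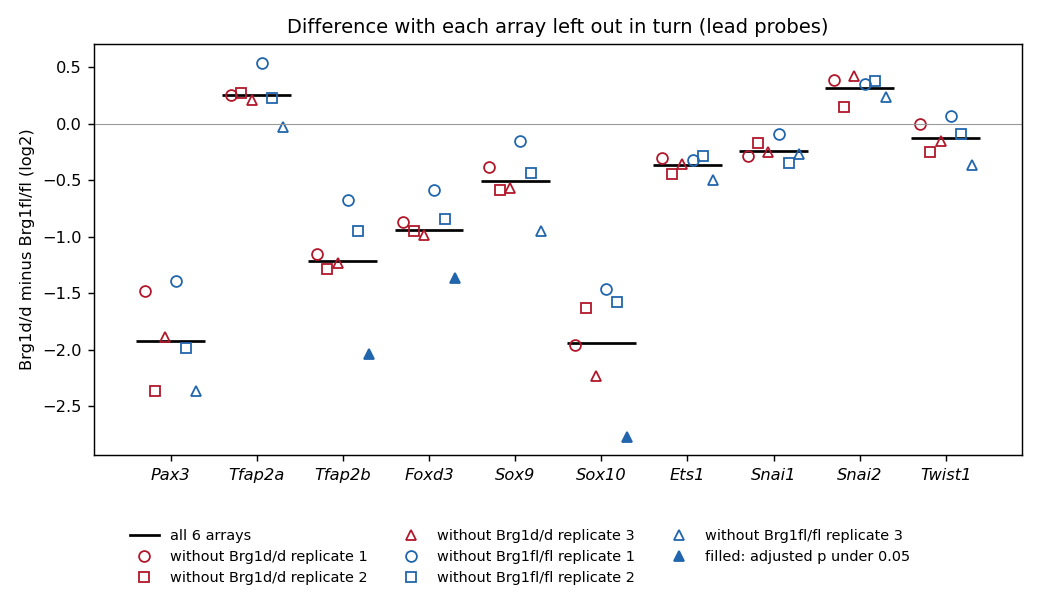
Lead-probe difference of each gene (y axis, Brg1d/d minus Brg1fl/fl, log2) with all 6 arrays (bars) and with each array left out in turn (points; red for a Brg1d/d array, blue for a control); filled points passed at an adjusted p under 0.05. The filled points are Sox10, Tfap2b and Foxd3 without control 3, and Tfap2a and Twist1 cross 0 without 1 of the controls.

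Markers of neighbouring tissues differed between the controls too. Their counts of called genes stand against 5.32% of all genes lower and 5.25% higher in Brg1d/d. All 7 neural plate markers (Sox1, Sox2, Sox3, Pax6, Otx2, Nes and Ncam1) read lower on control 3 than the average of the other two controls, with a median of -0.64. Their mean level was -1.04, -1.02 and -1.06 on the Brg1d/d arrays and 0.06, -0.54 and -0.97 on controls 1, 2 and 3, and between genotypes 2 of them, Pax6 and Otx2, fell and 1, Sox1, rose. For 7 paraxial mesoderm markers, genes of the somites, the mean level was -1.21, -0.99 and -1.05 in Brg1d/d and 1.16, -0.04 and -0.22 in the controls. There control 1 alone stood high, 6 of 7 markers were lower on control 3 than the average of the other two controls (median -0.84), and 3 of the 7 fell in Brg1d/d. The 8 endothelial markers had means of -0.97, -0.99 and -1.0 in Brg1d/d and -0.12, 0.21 and -0.02 in the controls, and 2 of the 8 fell. The 9 measured markers of surface ectoderm and trophoblast epithelium averaged 1.94, 2.10 and 1.84 in Brg1d/d and 1.55, 1.58 and 1.40 in the controls. Of these 1 rose, the trophoblast gene Elf5, by 3.23 ± 0.18 (SE, limma adjusted p 0.00112). The difference was below 0 in 2 of the 9, Trp63 and Epcam. They differed by -1.36 ± 0.57 and -0.35 ± 0.24 (SE, limma adjusted p 0.159 and 0.347), and by -1.44 and 0.09 on the same day. The remaining markers, Grhl2 at 0.33 and Gata3 at 0.69 among them, lay above 0 and were not called. The list's median was 0.33. Of 3 axial mesoderm markers, which averaged -0.10, 0.24 and 0.05 in Brg1d/d and 0.52, -0.12 and 0.20 in the controls, limma called 0. Primitive erythroid and yolk sac markers set control 1 apart instead. The 6 erythroid markers averaged 1.30, 0.96 and 1.18 in Brg1d/d and 0.32, 3.03 and 3.02 in controls 1, 2 and 3, and the 6 yolk sac endoderm markers 4.23, 4.05 and 4.27 in Brg1d/d and 2.03, 4.64 and 4.73 in the controls, with 0 called in both lists. Of the measured markers in these lists none was below background on every array of a genotype. The part of tissue makeup in the specifier values was not tested.

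Other genes of the crest programme were read from 5 lists. Counts of called genes in each list again stand against 5.32% of all genes lower and 5.25% higher in Brg1d/d. The list medians stand against 0.07 over all genes, and the same-day medians against 0.004. Of 11 measured border genes 3 rose and 0 fell, with a median of 0.36 (same-day median 0.53). Tfap2c, an AP-2 factor that is also a trophoblast gene, rose by 2.40 ± 0.33 (SE, limma adjusted p 0.0121). Its levels were 2.66, 2.60 and 1.73 in Brg1d/d against 0.30, 0.03 and -0.52 in the controls, with no overlap. Such a separation, higher in Brg1d/d, was seen in 22.8% of all genes. Msx1, a homeobox target of BMP signals, rose by 1.02 ± 0.22 (SE, limma adjusted p 0.0373), and Prdm1, a repressor also active in primordial germ cells, rose by 0.69 ± 0.15 (SE, limma adjusted p 0.0398). Of the inducing signals, 11 were measured, and 1 rose and 1 fell. Bmp4 rose by 1.13 ± 0.19 (SE, limma adjusted p 0.0201), at 1.73, 1.58 and 1.77 in Brg1d/d against 0.87, 0.35 and 0.47 in the controls. Wnt3a, a ligand of the dorsal neural tube and the tail bud, fell by 1.71 ± 0.27 (SE, limma adjusted p 0.0180), at -1.19, -1.11 and -1.33 in Brg1d/d against 1.04, 0.02 and 0.43 in the controls. The median of the signals was 0.22, with a same-day median of -0.09.

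Among 14 measured genes of the epithelial to mesenchymal transition 4 fell and 0 rose, with a median of -0.40 (same-day median -0.26). Mmp14, a membrane-bound protease, fell by 1.96 ± 0.45 (SE, limma adjusted p 0.0466) and by 0.96 on the same day. N-cadherin, Cdh2, fell by 1.43 ± 0.31 (SE, adjusted p 0.0407), Twist2 by 1.22 ± 0.17 (SE, adjusted p 0.0121) and the repressor Zeb1 by 0.78 ± 0.14 (SE, adjusted p 0.0258). All 4 are also genes of mesoderm or mesenchyme, and Cdh2 of heart muscle. The 5 heart muscle markers averaged 0.52 to 0.88 in Brg1d/d and 2.53 to 3.15 in the controls. Of these markers 4 fell, and Nkx2-5 differed by 0.01. The part of tissue makeup in the differences of Mmp14, Cdh2, Twist2 and Zeb1 was not tested. Of 23 measured later crest factors 2 fell and 1 rose, with a median of 0.10 (same-day median -0.27). Nr2f2, a nuclear receptor, fell by 1.37 ± 0.31 (SE, adjusted p 0.0451), and Sox6 by 0.92 ± 0.17 (SE, adjusted p 0.0266). Dlx1, a homeobox factor of the pharyngeal arches, rose by 2.84 ± 0.51 (SE, adjusted p 0.0258), with levels of -3.97, -3.58 and -3.63 in Brg1d/d against -6.14, -5.76 and -7.79 in the controls. The Dlx1 probe was well above background on 2 of 3 controls and entered the test through Brg1d/d, where it is high, so the size of its difference is uncertain. Of 14 measured receptors and differentiation genes of the crest 0 were called. The smallest p there was that of Ednrb, the endothelin receptor of pigment and enteric precursors, at -0.86 ± 0.22 (SE, limma adjusted p 0.0568), and the list's median was -0.55 (same-day median -0.35). Of the 14, 10 had a difference below 0. Zic5, Sox8, Ret and Snai3 did not pass the filter on dim probes.

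The genes most like 3 of the specifiers over the 6 arrays were taken by the smallest root mean square difference of centred levels among 14197 genes, for the 3 members with the smallest p. For Sox10 they were Wnt7a at 0.25, Cacna1b at 0.36 and Lgi4 at 0.40. Wnt7a read -5.61, -6.43 and -5.47 in Brg1d/d against -2.63, -3.28 and -5.04 in the controls. For Foxd3 they were Slc27a6 at 0.07, Sh3rf3 at 0.13 and Adgrl3 at 0.13. Slc27a6 read -4.80, -4.69 and -4.46 in Brg1d/d against -3.01, -3.42 and -4.64 in the controls. For Pax3 they were Susd4 at 0.21, 2610042L04Rik at 0.27 and Lrrc4 at 0.28, and Susd4 read -2.32, -1.0 and -1.81 in Brg1d/d against 0.84, 0.11 and -0.71 in the controls. Their order of arrays follows from the way they were chosen.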

How the data were processed

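Total RNA of 6 whole-embryo samples, 250 ng each, was labelled with Cy3 and hybridised to a mouse array with probes of 60 bases. The authors deposited spot intensity values from Agilent Feature Extraction 9.5 (per the submitters' processing notes), which per the file headers are background-subtracted and spatially detrended and not scaled between arrays. Flags of other kinds (outlier, saturation, well above background; 0 or 1) come from the same files, per the file headers. The deposited series table held the same signal (100% of spots; relative tolerance 1e-4), and 0 columns belonged to other samples.

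Control and outlier spots were left out and replicate spots averaged. The log2 signal was reduced by each array's log2 75th percentile over all spots (957.5 to 1627 units). A probe was kept if every array of either genotype (3 of 3) read it well above background, and kept probes were fitted with limma 3.58.1 (lmFit, eBayes, two-sided) in R 4.3.3, with files read in Python 3.11.15. Genes were named through accession, symbol or synonym in a RefSeq table, used for names only (22951, 6659 and 3109 probes, with 8455 keeping the array's name). The fit was tested on simulated data.

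The members and the gene lists were chosen with earlier results of these data known. The rule for named genes takes every member, up to 4 passing genes per crest list with the largest differences (or else the one with the smallest p), and for 3 members the 3 most similar genes. The alternatives were quantile and median scaling, a percentile over distinct probes (added after seeing the data), normexp (offset 50), dropping the filter or requiring all 6 arrays, the series table, an intensity trend with robust variance, slide, scan day, a split of the arrays by spike-in signal (a batch of unknown origin that no label names) or replicate number as a block, the mean of a gene's probes, and each array left out. Precision is limited by having 3 arrays per genotype. Saturated spots numbered 0 to 4 per array, with none among the members. Some results are not reported here.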

Additional observations from a re-analysis of the deposited data

How the results depend on the processing

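The counts of 0 called probes and 0 called genes held under every alternative except 2 of those that leave out an array. With each array left out in turn, called probes ran between 0 and 3 and called genes between 0 and 3, the 3 being Sox10, Foxd3 and Tfap2b without Brg1fl/fl replicate 3, and the single other call Ets1 A_51_P329043 without Brg1d/d replicate 2. Leaving out Brg1d/d replicate 2 makes scan day and genotype inseparable. The median over the 10 genes stayed below 0 under each alternative, at -0.725 to -0.237 with an array left out and at -0.185 with the mean of a gene's probes (added after seeing the data). Twist1 turned to 0.09 with scan day as a block and to 0.09 with the spike-in split as a block, and ran between -0.37 and 0.07 with an array left out. Both blocks return the same-day difference, which rests on Brg1d/d replicate 2, so they are not separate checks. Tfap2a ran between -0.03 and 0.54 with an array left out. With the mean of a gene's probes in place of the lead probe, Sox9 was at 0.0 and Ets1 at 0.18. These values did not pass, and the cause was not tested. The differences of Pax3 (-2.37 to -1.0), Sox10 (-2.77 to -1.46), Foxd3 (-1.37 to -0.59), Tfap2b (-2.04 to -0.39), Snai1 (-0.37 to -0.09) and Snai2 (0.15 to 0.66) kept their sign under all alternatives. The values gave no sign that the replicate numbers pair the samples, though 3 arrays per genotype cannot exclude it. The deviations of same-numbered arrays correlated at -0.127, 0.0805 and 0.0906, and those of unlike numbers at -0.190 to 0.109. The replicate block called 0 of the 10 genes with a median of -0.442. The count of genes called on the whole array was 1588 in the main setting, 0 with scan day as a block (1797 at an unadjusted p under 0.05), 122 with the spike-in split, 572 with the replicate block, 694 without a filter on dim probes and 306 to 2918 with an array left out.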

Other observations

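Genes outside the specifiers shared the low value of control 3, as seen in their values and not by a rule set for it. Zic1, a zinc-finger factor of the neural plate border and dorsal neural tube, read -0.03, 0.17 and -0.22 in Brg1d/d against 0.77, 0.33 and -2.26 on controls 1, 2 and 3. Trp63, the p53 relative of surface ectoderm, read -3.80, -3.94 and -3.83 in Brg1d/d against -1.60, -1.99 and -3.89 in the controls. Most markers in its list of surface ectoderm and trophoblast epithelium did not share this. Only 3 of the 9 were lower on control 3 than the average of controls 1 and 2, with a list median of 0.17. Dlx2, a homeobox factor of the pharyngeal arches, read 0.52, 0.85 and 0.60 in Brg1d/d against -0.93, -0.78 and -2.96 in the controls, and its difference of 2.21 ± 0.57 (SE) had a limma adjusted p of 0.0605. For Zic1 the Brg1d/d arrays lay within the range of the controls, for Trp63 they lay around control 3, and for Dlx2 all of them lay above the controls (22.8% of all genes). Zic1 differed by 0.36 ± 0.76 (SE, limma adjusted p 0.760) and Trp63 by -1.36 ± 0.57 (SE, limma adjusted p 0.159).

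In the list of crest receptors and differentiation genes, Ednrb and Erbb3 had the smallest p and differed in opposite directions. Ednrb read -2.59, -2.71 and -2.48 in Brg1d/d against -2.15, -1.49 and -1.55 in the controls. Erbb3, the neuregulin receptor of crest and of epithelia, read 1.19, 1.31 and 1.14 in Brg1d/d against 0.72, 0.64 and 0.32 in the controls, with a difference of 0.65 ± 0.17 (SE, limma adjusted p 0.0610). The groups did not overlap in either gene, where 42.0% of all genes had no overlap.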
